A study of Mus musculus with 6 samples.

Results

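The 32 genes described here encode enzymes and regulators of sterol and fatty acid synthesis. They were chosen by name, with earlier results of these data known. They comprise 20 enzymes of the mevalonate and sterol steps, 6 genes of SREBP control and sterol transfer, and 6 enzymes that make fatty acids. All 32 were among the 55335 genes of the count files, and all 32 were among the 17687 genes that passed the filter on low counts. The sequenced RNA came from mouse retina by an anti-HA pull-down whose label names retinal ganglion cells, which send their axons through the optic nerve. All 6 libraries came from wild-type C57BL/6 mice aged 10 weeks: 3 naive libraries and 3 SOHU libraries. SOHU stands for silicone oil-induced ocular hypertension under-detected: oil in the front chamber raises the pressure in the eye, and the retinas were collected 1 week after the injection. The oil injection stands in the treatment field of all 6 libraries, and the condition label alone separates the naive ones. The labels do not name the protein that carried the HA tag, the promoter that drove it, or whether animals were pooled. The p-values below therefore rest on the differences among these libraries alone, and that spread may be technical. Total counts ran from 21691354 to 26824919 per library.

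Cells make cholesterol from acetyl-CoA, first by the mevalonate steps to farnesyl diphosphate, then through squalene and lanosterol, and finally by a series of reductions and demethylations of the sterol ring. Transcription of most of these enzymes is driven by SREBP-2, the product of Srebf2, and fatty acid enzymes depend more on SREBP-1, the product of Srebf1. Both precursors sit in the endoplasmic reticulum bound to SCAP, and the INSIG proteins hold the complex there while sterols are plentiful. Srebf1 is also a textbook target of LXR, the nuclear receptor that senses oxysterols and drives cholesterol export. In the adult nervous system glia are thought to make much of the cholesterol that neurons use.

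Reads of the sterol pathway were lower in the SOHU libraries, along most of the path from acetyl-CoA to cholesterol, and Srebf1 was higher. The test was not passed by 9 of the 20 sterol enzymes and 5 of the 6 fatty acid enzymes. Of the 32 genes, 13 fell in SOHU by edgeR's quasi-likelihood test at a Benjamini-Hochberg adjusted p under 0.05, 1 (Srebf1) rose and 18 did not pass. Of all 17687 genes tested, 5.93% fell and 8.02% rose. The fall was seen in 11 of the 20 sterol enzymes, in 1 of the 6 regulators (Insig1) and in 1 of the 6 fatty acid enzymes (Elovl6). No sterol enzyme was higher by edgeR, DESeq2 or limma-voom, or by edgeR at an unadjusted p under 0.05, and DESeq2 and limma-voom called 13 and 12 of the 20 lower. The median log2 fold change, SOHU minus naive, was -0.57 for the 20 sterol enzymes, -0.20 for the 6 regulators, -0.26 for the 6 fatty acid enzymes and 0.01 for all genes tested. The fitted change was below 0 in 25 of the 32 genes, against 48.9% of all genes. In 22 of the 32 genes every SOHU library lay below every naive library, against 19.7% of all genes, and in 4 genes every SOHU library lay above, against 19.3%. As the 32 genes were chosen with earlier results known, these comparisons with all genes are a description only. In a bulk pull-down, fewer cells of a type and less RNA per cell cannot be told apart.

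**Figure D1:**
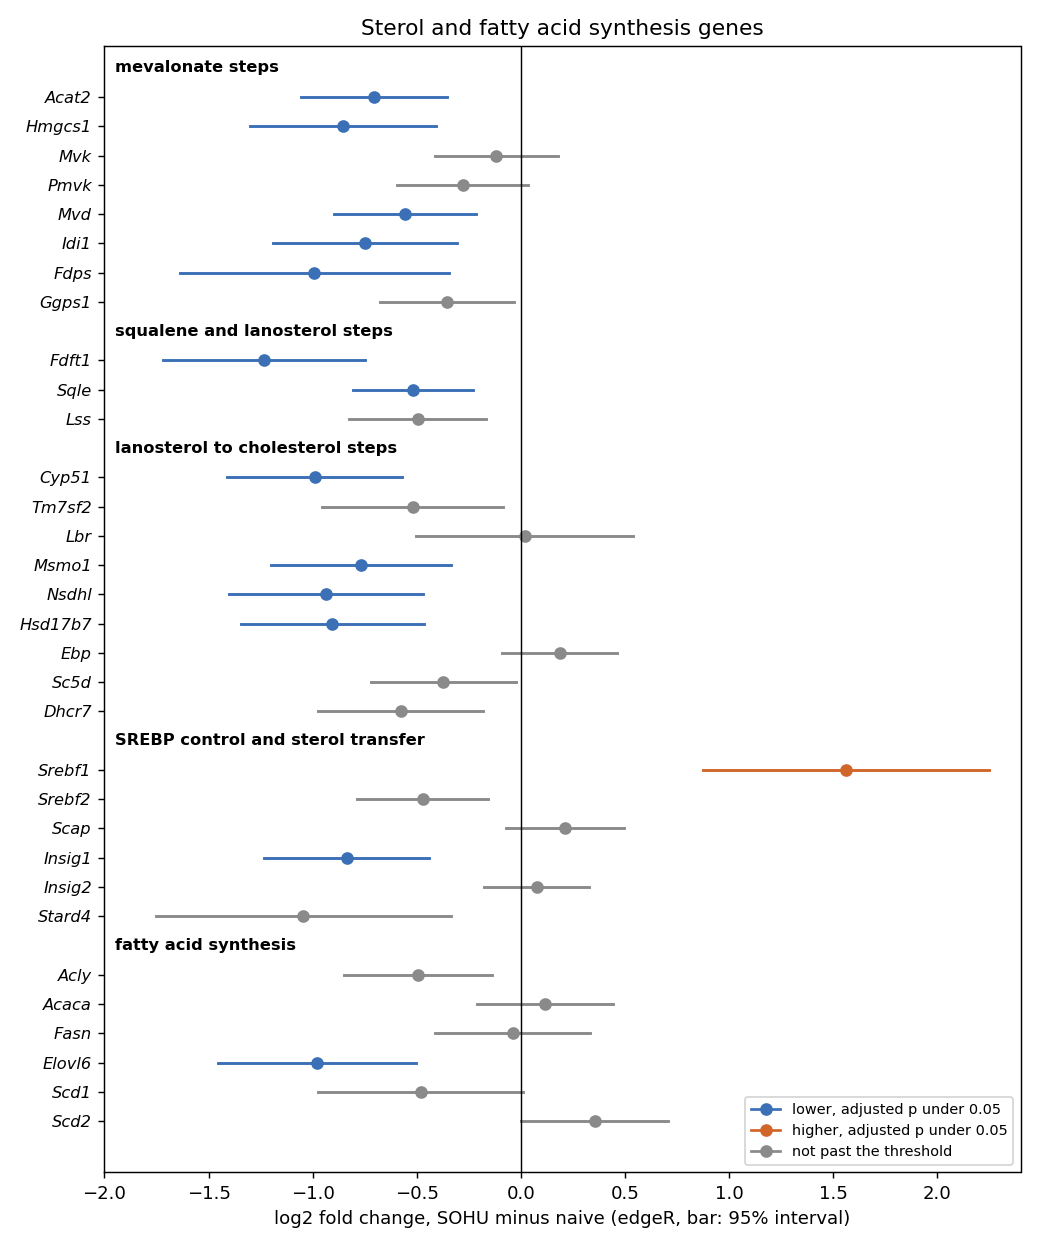
Log2 fold change of each of the 32 genes, SOHU minus naive, by edgeR, with its 95% interval, ordered by role in the pathway (x axis: log2 fold change). Blue points mark the 13 genes that fell, the orange point marks Srebf1 at 1.56, and grey points did not pass the adjusted threshold.

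These calls were sensitive to single libraries. With edgeR, no gene of the 32 passed in either direction when naive replicate 1, naive replicate 3 or SOHU replicate 2 was left out. In those fits 18, 19 and 18 of the genes were lower at an unadjusted p under 0.05, against 21 with all libraries. The loss covered the whole table: of all genes tested edgeR then called 0, 0 and 336, with 3919, 4251 and 4621 at an unadjusted p under 0.05, against 2467 and 5506 with all libraries. DESeq2 called 10, 14 and 14 of them lower in the same omissions, and limma-voom called 0 in each. Without naive replicate 2 edgeR called 2 lower, without SOHU replicate 1 it called 14, and without SOHU replicate 3 it called 18. The highest adjusted p that the 14 called genes reached when 1 library was left out lay between 0.0742 (Fdft1) and 0.153 (Mvd). The fitted direction was the same in all 6 omissions for 30 of the 32 genes, the exceptions being Lbr and Fasn, neither of which passed the test.

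The cell type markers moved between the same groups. Retinal ganglion cell markers were present in every library and made up 0.446% to 0.717% of the counts in naive libraries and 0.212% to 0.313% in SOHU libraries. Of the 16 ganglion cell markers 15 fell (median log2 fold change -1.12), including the neurofilament genes Nefm (-1.44) and Nefh (-1.37). Müller glia and astrocyte markers took 1.1% to 1.54% of the counts in naive and 2.33% to 4.35% in SOHU libraries, with 7 of 9 higher and a median of 1.20, and none of them was at 0. Microglia markers summed to 0.000466% to 0.00207% of the counts in naive and 0.00233% to 0.00687% in SOHU libraries, and 3 of 8 rose. Endothelial and pericyte markers rose in 3 of the 5 tested, amacrine cell markers fell in 3 of 7, and edgeR called 0 of 9 rod, 0 of 6 bipolar cell and 0 of 3 tested oligodendrocyte markers. At an unadjusted p under 0.05 these last lists held 1, 2 and 1 genes, DESeq2 called 1, 2 and 1, and limma-voom called 0 in each. Their median log2 fold changes were 0.10, -0.52 and -0.47, and the fitted change was negative in 1 of 9, 6 of 6 and 3 of 3. The medians of the microglia, endothelial and pericyte, and amacrine cell markers were 1.76, 1.28 and -0.84. The part of these shifts in the results on sterol and fatty acid genes was not tested.

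The mevalonate steps build the 5-carbon units of sterols, and 5 of their 8 genes fell. Hmgcs1, at chr13:119690379-119708260 on mm10 (ENSMUSG00000093930.2), makes HMG-CoA, an early intermediate of the pathway. Its level was 232, 230 and 185 CPM (reads relative to the library total, corrected with edgeR's TMM factors) in naive replicates 1 to 3 and 83.8, 131 and 143 in SOHU replicates 1 to 3. The groups did not overlap, and SOHU replicate 1 was the lowest library. The log2 fold change was -0.85 (SE 0.20, edgeR adjusted p = 0.0251, and 0.0106 to 0.109 when 1 library was left out). Acat2, the cytosolic thiolase that joins acetyl-CoA units before that step, went from 81.9 ± 10.9 to 50.2 ± 7.06 CPM (SD, n = 3 each), a log2 fold change of -0.71 (edgeR adjusted p = 0.022). Idi1, which isomerises isopentenyl diphosphate, went from 44.3, 46.1 and 37.7 CPM in naive to 18.3, 29.5 and 28.5 CPM in SOHU libraries. Its change was -0.75 on the log2 scale (edgeR adjusted p = 0.0361), again with no overlap and with SOHU replicate 1 lowest. Mvd, the decarboxylase that forms isopentenyl diphosphate, fell from 52.4 ± 2.42 to 35.6 ± 5.63 CPM (log2 fold change -0.56, edgeR adjusted p = 0.0409).

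Fdps, which makes farnesyl diphosphate, was called lower at -0.99 (SE 0.29, edgeR adjusted p = 0.0487), but on 75, 83 and 79 reads in naive and 48, 37 and 33 reads in SOHU libraries. Per exon length its naive level, 0.788 ± 0.0885 RPKM (TMM-scaled CPM per kilobase of exon), was the lowest of the 32 genes. Fdps shares 1124 of its 4208 exon bases with Gm43738 on the same strand, which had no reads. The effect of that overlap on the count of Fdps was not tested. How reads that fit several places were counted is not given in the sources used here. The kinases between mevalonate and its diphosphate did not pass. Mvk stood at 53.7 ± 3.63 CPM in naive and 49.5 ± 3.70 CPM in SOHU libraries (log2 fold change -0.12, 95% interval -0.41 to 0.18). Pmvk, whose naive level of 88.9 RPKM was the highest of the 32 genes, had 152 ± 22.2 and 126 ± 8.64 CPM (log2 fold change -0.28, 95% interval -0.59 to 0.04). Ggps1, which leads from farnesyl diphosphate to protein prenylation instead of sterols, had a log2 fold change of -0.36 (edgeR adjusted p = 0.125) with groups that did not overlap. It shares 257 exon bases with Arid4b on the opposite strand, a gene read at 101% of its level, and the strand setting of the counting is not given.

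Promoter sequence was available for 26 of the 32 genes from RefSeq (GRCm38.p6, the same assembly as mm10), and the 250 bases before each annotated start were searched on both strands for 3 motifs. Fdps, Fdft1, Sqle, Stard4, Scd1 and Scd2 had no entry. The sterol element searched was TCACNCCAC, where N is any base, and the CCAAT box, bound by the factor NF-Y that works beside SREBP, was searched as CCAAT. These windows of Hmgcs1 and Mvd are shown because both genes fell and neither window covers an annotated exon. Capitals mark the motif matches, in either orientation. The Hmgcs1 window is chr13:119690101-119690350 on the plus strand, and the Mvd window is chr8:122443423-122443672 on the minus strand, each written 5′ to 3′ along its gene.
Hmgcs1: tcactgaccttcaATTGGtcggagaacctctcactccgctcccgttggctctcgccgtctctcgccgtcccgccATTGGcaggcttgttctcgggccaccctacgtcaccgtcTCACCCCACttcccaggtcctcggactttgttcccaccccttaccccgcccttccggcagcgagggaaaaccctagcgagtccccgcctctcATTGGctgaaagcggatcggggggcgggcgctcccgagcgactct
Mvd: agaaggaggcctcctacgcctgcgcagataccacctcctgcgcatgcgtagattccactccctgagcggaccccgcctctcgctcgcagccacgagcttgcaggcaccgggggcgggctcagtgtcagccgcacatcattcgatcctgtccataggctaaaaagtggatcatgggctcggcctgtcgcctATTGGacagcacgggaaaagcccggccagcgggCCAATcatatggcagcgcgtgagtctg
The Hmgcs1 window holds 1 sterol element match, starting at position -137 from the RefSeq start at which the window ends, and 3 CCAAT matches, and the Mvd window holds 2 CCAAT matches. Hmgcs1 was the only gene of the 26 with the sterol element as spelled, which occurs in 1.05% of all 32851 promoter windows of this length. CCAAT was present in 22 of the 34 windows of these genes and in 33.8% of all windows. Counted by gene, with up to 3 windows each, it was present in 8 of 10 that fell and in 13 of the 16 others. These are matches of letters, and binding was not measured.

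The middle of the pathway held the gene with the lowest fold change of the 32. Fdft1 (chr14:63145150-63179578, ENSMUSG00000021273.11) encodes squalene synthase, which commits farnesyl diphosphate to sterols. It was read at 353, 330 and 289 CPM in naive and at 108, 114 and 192 CPM in SOHU libraries. SOHU replicates 1 and 2 were close to each other and replicate 3 lay nearest to the naive range, without reaching it. The log2 fold change was -1.23 (SE 0.22, edgeR adjusted p = 0.0128, and 0.00133 to 0.0742 when 1 library was left out), and only 1.32% of all tested genes had a lower one. Fdft1 shares 774 exon bases with Ctsb on the opposite strand, a gene read at 498% of its level, so its value is uncertain in that respect. Sqle, squalene epoxidase, the first oxygen-dependent step, went from 92.7, 91.3 and 91.5 CPM to 69.5, 57.2 and 65.6 CPM. Its naive libraries differed little, and its fall of 0.52 on the log2 scale passed (SE 0.13, edgeR adjusted p = 0.0296). Lss, which folds squalene epoxide into lanosterol, had a similar change of -0.50 and groups that did not overlap, but missed the threshold (edgeR adjusted p = 0.0527). It was called with DESeq2 (adjusted p = 0.0203) and limma-voom (adjusted p = 0.0499).

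From lanosterol to cholesterol, 4 of 9 genes fell, and these 4 act on the methyl groups of the sterol ring. Cyp51 (chr5:4081145-4104746, ENSMUSG00000001467.5), the lanosterol 14-alpha-demethylase, was read at 81.4, 86.2 and 88.5 CPM in naive and at 33.1, 40.2 and 55.8 CPM in SOHU libraries. All SOHU values lay well below the naive ones, and the log2 fold change was -0.99 (SE 0.19, edgeR adjusted p = 0.0152, and 0.00219 to 0.0752 when 1 library was left out). Cyp51 shares 166 exon bases with Akap9 on the opposite strand, which was read at 104% of its level. Msmo1, Nsdhl and Hsd17b7 encode the oxidase, dehydrogenase and ketoreductase that remove the methyl groups at carbon 4. Msmo1 had 177, 181 and 154 CPM in naive and 75.9, 93.5 and 131 CPM in SOHU libraries (log2 fold change -0.77, SE 0.19, edgeR adjusted p = 0.0317). Nsdhl had 48.8, 45.1 and 37.1 CPM in naive and 25.7, 16.2 and 26.6 CPM in SOHU libraries (log2 fold change -0.93, SE 0.21, edgeR adjusted p = 0.0221). Hsd17b7 had 24.1, 23.5 and 22.1 CPM in naive and 9.6, 12.2 and 15.4 CPM in SOHU libraries (log2 fold change -0.91, SE 0.20, edgeR adjusted p = 0.02). None of these 3 genes overlapped between the groups. The library with the lowest level was not shared: it was SOHU replicate 1 for Msmo1 and Hsd17b7 and SOHU replicate 2 for Nsdhl.

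The other 5 genes of this segment did not pass. Dhcr7, the last reductase on the way to cholesterol, came closest, at 33.8 ± 1.16 CPM in naive and 22.7 ± 4.96 CPM in SOHU libraries (log2 fold change -0.58, edgeR adjusted p = 0.0578, DESeq2 adjusted p = 0.02). Sc5d, the desaturase before it, had a log2 fold change of -0.37 (95% interval -0.72 to -0.02, edgeR adjusted p = 0.138). The sterol C14-reductase activity is shared by Tm7sf2 and Lbr, the latter also a nuclear envelope protein. Tm7sf2 had a log2 fold change of -0.52 (edgeR adjusted p = 0.1), and it shares 532 exon bases with Vps51 on the same strand, a gene read at 380% of its level. Lbr stood at 7.29 ± 0.820 and 7.38 ± 1.72 CPM (log2 fold change 0.02, 95% interval -0.50 to 0.54), and its fitted sign turned negative without naive replicate 1 (-0.08) and without SOHU replicate 1 (-0.15). Ebp, the sterol isomerase, was the only one of the 20 sterol enzymes whose SOHU libraries all lay above the naive ones, at 62.6, 59.1 and 58.2 against 54.8, 50.5 and 52.6 CPM (log2 fold change 0.19, edgeR adjusted p = 0.332).

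**Figure D2:**
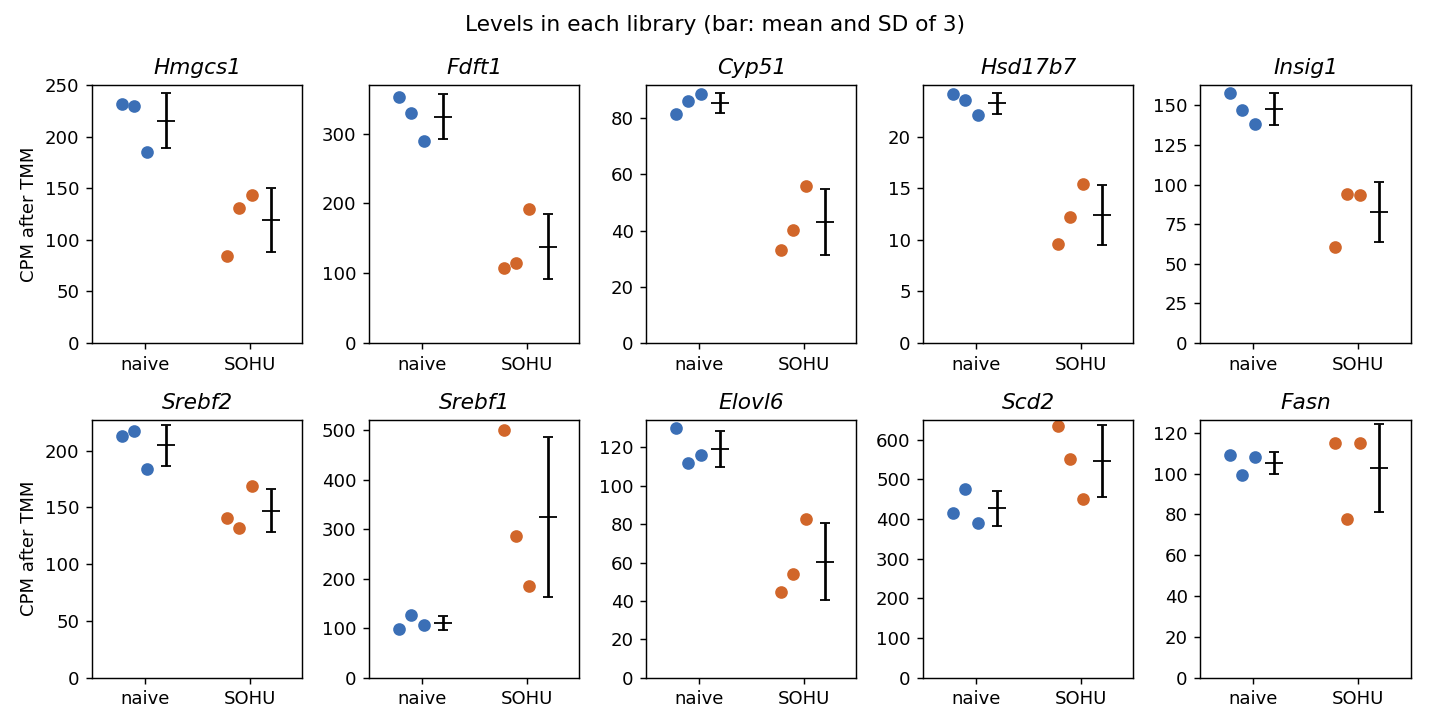
CPM after TMM scaling (y axis, from 0) of 10 of the genes in each naive (blue) and SOHU (orange) library, with bars for the mean and SD of 3. Hmgcs1, Fdft1, Cyp51, Hsd17b7, Insig1, Srebf2 and Elovl6 show every SOHU point below the naive points, Srebf1 shows every SOHU point above them, and Scd2 and Fasn overlap.

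The genes of the SREBPs differed, with Srebf1 higher and Srebf2 not past the threshold. Srebf1 (chr11:60199089-60222581, ENSMUSG00000020538.15) was read at 97.8, 126 and 107 CPM in naive and at 501, 287 and 186 CPM in SOHU libraries. All SOHU libraries lay above the naive ones, and they spread widely, with replicate 1 at the top. The log2 fold change was 1.56 (SE 0.31, edgeR adjusted p = 0.0162, and 0.00198 to 0.0863 when 1 library was left out), and 98.2% of tested genes had a lower one. Without SOHU replicate 1 it was 1.1. With no filter on low counts Srebf1 did not pass (edgeR adjusted p = 0.118), and edgeR then called 0 of the 32 genes higher, with 2 at an unadjusted p under 0.05. The 6 libraries stood in the same order by Srebf1 as by the summed share of Müller glia and astrocyte markers, which was 1.1%, 1.54% and 1.36% in naive and 4.35%, 2.99% and 2.33% in SOHU replicates 1 to 3. That sum is weighted toward Apoe and Clu, at 17900 and 16900 CPM in SOHU replicate 1. Glul, at 3180 CPM there, overlapped between the groups. The mean log2 CPM of the list, where each gene counts alike, gave the same order (8.66, 9.06 and 8.80 in naive and 10.43, 9.86 and 9.57 in SOHU replicates 1 to 3). The order was not particular to glia. Endothelial and pericyte markers gave it too, by mean log2 CPM and by summed share. Their shares were 0.0348%, 0.0409% and 0.0373% in naive and 0.1%, 0.0939% and 0.0774% in SOHU replicates 1 to 3. Microglia markers gave it by summed share but not by mean log2 CPM. The part of any of these markers in the Srebf1 result was not tested. Srebf1 shares 109 exon bases with Rai1 on the opposite strand, which was read at 19.9% of its level.

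Srebf2, the sterol-responsive factor, was read at 213, 217 and 184 CPM in naive and at 141, 132 and 169 CPM in SOHU libraries. The groups did not overlap, but the log2 fold change of -0.47 just missed the threshold with edgeR (adjusted p = 0.0518) and passed with DESeq2 (adjusted p = 0.0194) and limma-voom (adjusted p = 0.0482). Compared per exon length within each library, Srebf2 was read at 1.71, 1.36 and 1.35 times the level of Srebf1 in naive and at 0.221, 0.361 and 0.713 times in SOHU libraries. The more abundant SREBP gene was thus Srebf2 in every naive and Srebf1 in every SOHU library. The difference of the log2 ratio was -1.93 (exact two-sided permutation p = 0.1, adjusted p = 0.1 over 3 ratios), and 3 libraries against 3 allow no p under 0.1.

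Of the sterol sensors, Insig1, itself a target of SREBP, fell and its paralog Insig2 did not pass. Insig1 (chr5:28071363-28078662, ENSMUSG00000045294.11) was read at 158, 147 and 138 CPM in naive and at 60.6, 93.9 and 93.4 CPM in SOHU libraries. The groups were separate and SOHU replicate 1 was lowest, with a log2 fold change of -0.84 (SE 0.18, edgeR adjusted p = 0.0189, and 0.0111 to 0.0952 when 1 library was left out). Insig2 was read at 181, 171 and 179 CPM in naive and at 187, 190 and 183 CPM in SOHU libraries, a log2 fold change of 0.08 with a 95% interval of -0.18 to 0.33. Per exon length, Insig1 stood at 0.976, 0.964 and 0.869 times Insig2 in naive and at 0.365, 0.554 and 0.574 times in SOHU libraries. The genes were thus close to equal in naive libraries, and the ratio was lower in every SOHU library (log2 difference -0.94, exact two-sided permutation p = 0.1, the smallest possible, adjusted p = 0.1). Scap, the escort of both SREBPs, had 61.1 ± 3.94 and 70.8 ± 4.50 CPM (log2 fold change 0.21, 95% interval -0.07 to 0.50, edgeR adjusted p = 0.29). Stard4, a soluble carrier of sterol between membranes, was read at 39.7, 36.7 and 31.0 CPM in naive and at 8.31, 20.9 and 22.8 CPM in SOHU libraries. It had a log2 fold change of -1.05, next to Fdft1 the most negative of the 32, yet with an SE of 0.32 it missed the threshold in edgeR (adjusted p = 0.0555) and passed in DESeq2 (adjusted p = 0.00744) and limma-voom (adjusted p = 0.0387).

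**Figure D3:**
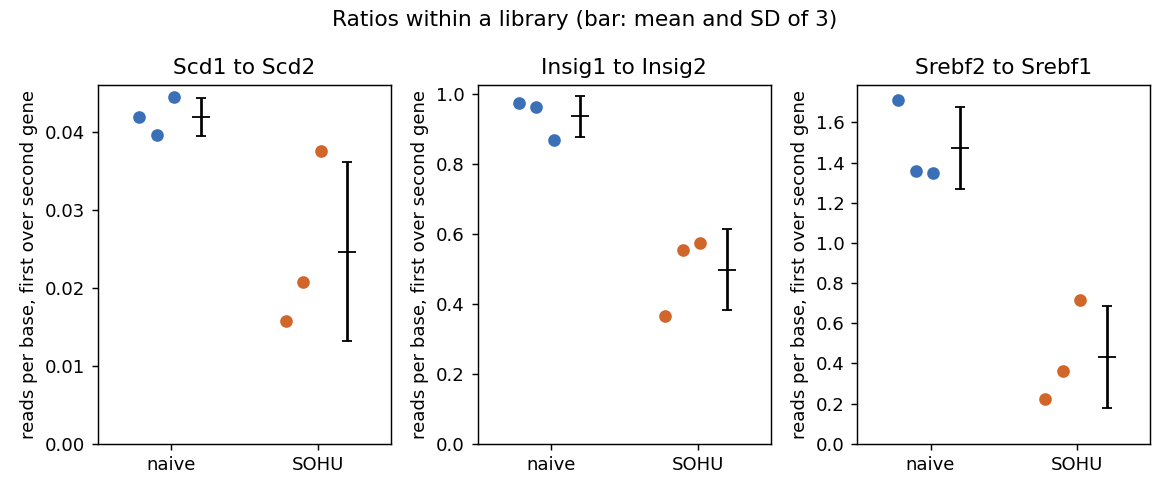
Ratio of reads per exon base of a gene to those of its partner in the same library (y axis, linear, from 0) for Scd1 to Scd2, Insig1 to Insig2 and Srebf2 to Srebf1, in naive (blue) and SOHU (orange) libraries, with the mean and SD of 3. All 3 SOHU points lie below all 3 naive points in each panel; for Srebf2 to Srebf1 they pass from 1.35 to 1.71 down to 0.221 to 0.713.

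Most fatty acid enzymes did not pass the test, though in 3 of the 6 every SOHU library lay below every naive one. DESeq2 called 2 of the 6 lower and limma-voom called 1. Elovl6, which lengthens palmitate to stearate, was the only one of the 6 that edgeR called lower. It was read at 130, 112 and 116 CPM in naive and at 44.5, 53.9 and 82.9 CPM in SOHU libraries, with no overlap and with SOHU replicate 3 nearest to the naive ones (log2 fold change -0.98, SE 0.21, edgeR adjusted p = 0.0204, and 0.00201 to 0.0962 when 1 library was left out). Acly, which supplies cytosolic acetyl-CoA to sterols and fatty acids alike, had 191 ± 22.3 and 135 ± 24.2 CPM with groups that did not overlap (log2 fold change -0.49, edgeR adjusted p = 0.0661). Acaca, which makes malonyl-CoA, had a log2 fold change of 0.11 (95% interval -0.21 to 0.44). Fasn, the synthase that builds palmitate, was read at 109, 99.1 and 108 CPM in naive and at 115, 77.7 and 115 CPM in SOHU libraries. Its groups overlapped, its log2 fold change was -0.04 (95% interval -0.41 to 0.33), and without SOHU replicate 2 the fitted value was 0.14.

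Scd1 and Scd2 encode desaturases that put the first double bond into stearate and palmitate. Scd2 was the more abundant, at 78.1 ± 8.09 RPKM in naive libraries against 3.26 ± 0.156 RPKM for Scd1. Scd1 had 15.5, 16.8 and 15.5 CPM in naive and 8.89, 10.2 and 15.2 CPM in SOHU libraries (log2 fold change -0.48, edgeR adjusted p = 0.168). Scd2 had 414, 476 and 390 CPM in naive and 634, 552 and 451 CPM in SOHU libraries (log2 fold change 0.35, edgeR adjusted p = 0.157). Neither paralog passed, and their fitted changes had opposite signs. Within a library, Scd1 per exon length was 0.0419, 0.0396 and 0.0445 of Scd2 in naive and 0.0157, 0.0207 and 0.0376 of it in SOHU libraries. The ratio was thus lower in every SOHU library, with replicate 3 closest to the naive range (log2 difference -0.86, exact two-sided permutation p = 0.1, the smallest possible, adjusted p = 0.1).

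The last motif, the LXR-type repeat, was searched in the same promoter windows as GGTTACT, then any 2 bases, then CGG, in both orientations. Its letters were chosen after the sequences had been read. The windows of Srebf1 at chr11:60210472-60210721 and of Fasn at chr11:120824548-120824797, both on the minus strand and written 5′ to 3′ along the gene, are shown because they were the only ones of the 26 genes to hold it. Capitals mark this repeat and CCAAT, in either orientation.
Srebf1: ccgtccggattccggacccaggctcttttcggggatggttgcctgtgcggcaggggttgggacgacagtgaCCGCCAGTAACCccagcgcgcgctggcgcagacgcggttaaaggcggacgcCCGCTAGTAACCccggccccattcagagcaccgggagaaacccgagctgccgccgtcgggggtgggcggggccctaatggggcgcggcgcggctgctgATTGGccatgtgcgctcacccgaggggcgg
Fasn: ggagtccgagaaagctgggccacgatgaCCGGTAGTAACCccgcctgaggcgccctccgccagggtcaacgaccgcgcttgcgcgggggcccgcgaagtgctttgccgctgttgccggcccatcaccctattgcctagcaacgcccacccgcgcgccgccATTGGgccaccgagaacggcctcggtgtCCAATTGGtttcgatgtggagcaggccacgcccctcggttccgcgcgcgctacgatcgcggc
The Srebf1 window, which precedes an internal start of the gene and is 1 of 3 Srebf1 windows in the table, holds the repeat 2 times, and the Fasn window holds it 1 time. In the Fasn window 2 CCAAT matches in opposite orientations overlap. Only 9 of 32851 windows (0.0274%) hold the repeat. As the letters were chosen from these sequences, that share and the changes of the genes that hold the repeat are a description only. Of the other genes with such a window, Abca1 (log2 fold change 2.65) and Wdfy2 (0.62) rose by edgeR, as did 8.02% of all genes tested. Cnot4 (-0.04), Golm1 (0.12) and Icosl (0.06) did not pass, like Fasn, and their groups overlapped. Gm20636 and Hpx were not tested. The count files sum all forms of Srebf1, so transcripts from the internal start were not measured apart.

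Genes next to these in the pathway were followed by lists, which like the 32 were drawn up with earlier results of the same libraries known. Aacs, which activates acetoacetate for sterol synthesis, was read at 73.2, 74.7 and 70.7 CPM in naive and at 36.5, 43.4 and 54.9 CPM in SOHU libraries. The groups did not overlap, with SOHU replicate 1 lowest, and Aacs fell by 0.70 on the log2 scale (SE 0.16, edgeR adjusted p = 0.0252). Of 5 others from the list of other sterol synthesis and uptake genes, named after their values were seen, edgeR called 0 at the adjusted threshold. It gave 2 of them an unadjusted p under 0.05. Acat1, the mitochondrial thiolase, and Cyb5b, a cytochrome b5, had log2 fold changes of -0.40 (edgeR adjusted p = 0.0597) and -0.38 (edgeR adjusted p = 0.0573) with groups that did not overlap. Por (0.24), Erg28 (0.07) and Cyb5r3 (-0.07) overlapped between the groups.

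The genes that handle isoprenoids outside the sterol path and those that process SREBP did not follow the sterol enzymes past the threshold. Of 10 isoprenoid genes, which serve protein prenylation, dolichol and ubiquinone, 0 were called by edgeR, DESeq2 or limma-voom and 0 had an edgeR unadjusted p under 0.05, with log2 fold changes from -0.28 to 0.07. Of 10 tested genes that cleave or degrade SREBP and its partners, 0 were called by edgeR, with 2 at an unadjusted p under 0.05, and DESeq2 and limma-voom called 1 each, higher. The smallest p belonged to Rnf145, a ubiquitin ligase for SCAP (log2 fold change 0.42, edgeR adjusted p = 0.0501).

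Of 16 tested genes of cholesterol turnover and transport, 6 rose and 2 fell, beside 8.02% and 5.93% of all genes, and the median log2 fold change was 0.51 against 0.01 for all genes. Abca1, the exporter of cholesterol to lipoproteins, was read at 7.93, 14.8 and 11 CPM in naive and 71.8, 98.6 and 40.2 CPM in SOHU libraries (log2 fold change 2.65, SE 0.33, edgeR adjusted p = 0.00858). Abcg1, another exporter, rose by 0.97 on the log2 scale (edgeR adjusted p = 0.015). Mylip, the LXR-induced ligase that degrades lipoprotein receptors, rose by 1.29 (edgeR adjusted p = 0.015). Also higher were Cyp27a1 (1.16) and Npc2 (0.83), and Nr1h3, which encodes LXR-alpha, passed narrowly at 0.87 (edgeR adjusted p = 0.0498). Cyp46a1, the neuronal cholesterol 24-hydroxylase, fell, with 41.5, 31.6 and 33.1 CPM in naive and 20.4, 12.5 and 25.2 CPM in SOHU libraries (log2 fold change -0.87, edgeR adjusted p = 0.044). Nceh1, a cholesteryl ester hydrolase, fell by 0.55 (edgeR adjusted p = 0.045). Nr1h3 and Nceh1 are named after their values were seen.

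In the list of fatty acid supply, elongation, desaturation and activation, 4 genes rose and 2 fell of 26 tested, beside 8.02% and 5.93% of all genes, and the median log2 fold change was -0.05. Gpam, which starts glycerolipid synthesis, was read at 20.9, 23.6 and 20 CPM in naive and 44.1, 47.7 and 38.2 CPM in SOHU libraries (log2 fold change 1.01, edgeR adjusted p = 0.00993). The elongases Elovl1 (1.29) and Elovl5 (0.88) and the acyl-CoA synthetase Acsl3 (1.00) also rose. Tecr, the reductase that completes each elongation cycle, fell (-0.75), as did Lpin1 (-0.55), a phosphatidate phosphatase. The elongases thus held calls in both directions, with Elovl6 lower and Elovl1 and Elovl5 higher in SOHU libraries.

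The median log2 fold change of the sterol enzymes, -0.57, lay between that of the ganglion cell markers, -1.12, and that of all genes. It also lay between the medians of the amacrine cell markers, -0.84, and the bipolar cell markers, -0.52. The part of any of these cell types in the fall of the sterol enzymes was not tested. The 20 sterol enzymes took 0.175%, 0.169% and 0.159% of the counts in naive and 0.0917%, 0.103% and 0.127% in SOHU replicates 1 to 3. The ganglion cell markers took 0.717%, 0.446% and 0.523% in naive and 0.217%, 0.212% and 0.313% in SOHU replicates 1 to 3. Per read of a ganglion cell marker there were 0.244, 0.380 and 0.304 sterol enzyme reads in naive and 0.422, 0.486 and 0.408 in SOHU libraries, so that this ratio was higher in every SOHU library than in any naive one. No test was made of this ratio. The marker sum is weighted toward Nefl and Sncg, the most read of the markers, with naive means of 1720 and 1100 CPM. Their log2 fold changes were -1.23 and -1.32, beside the marker median of -1.12. The same sum sets the marker scale used below.

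**Figure D4:**
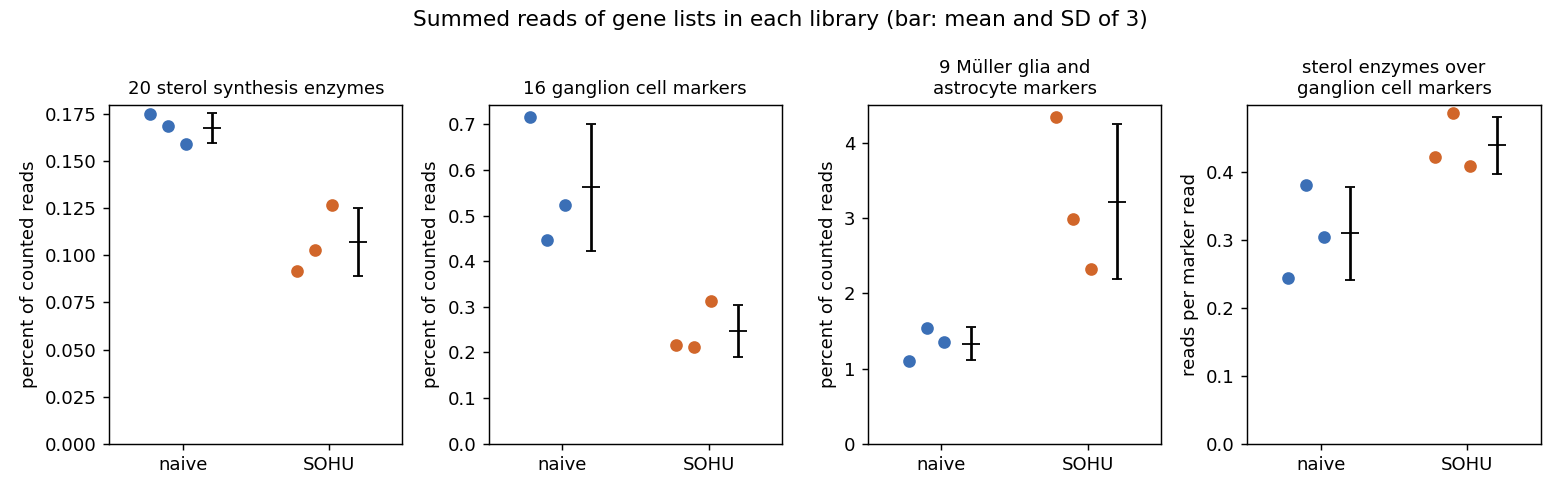
Summed reads of the 20 sterol enzymes, 16 ganglion cell markers and 9 Müller glia and astrocyte markers as a percent of all counts, and sterol enzyme reads per ganglion cell marker read (y axes, from 0), in naive (blue) and SOHU (orange) libraries with the mean and SD of 3. Sterol enzymes and ganglion cell markers are lower in all SOHU libraries, glial markers and the ratio in the last panel are higher.

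The sign of a fold change depends on the scale, for these genes as for all others. When libraries were scaled to the summed counts of the ganglion cell markers, the median over all tested genes shifted from 0.01 to 1.18, and 12886 genes rose and 2 fell. On that scale the median of the 20 sterol enzymes was 0.58, no gene of the 32 was called lower and 14 were called higher, and only Fdft1 kept a negative value (-0.11). On the marker scale 19 of the 20 sterol enzymes lay below the median of all genes, all but Ebp, and under TMM 18 of them did, all but Ebp and Lbr. Elovl6, Insig1 and Cyp51, each called lower under TMM, had values of 0.16, 0.34 and 0.14 on the marker scale and did not pass, and Srebf1 reached 2.75. Ratios within a library, such as Srebf2 to Srebf1, do not change with the scale.

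**Figure D5:**
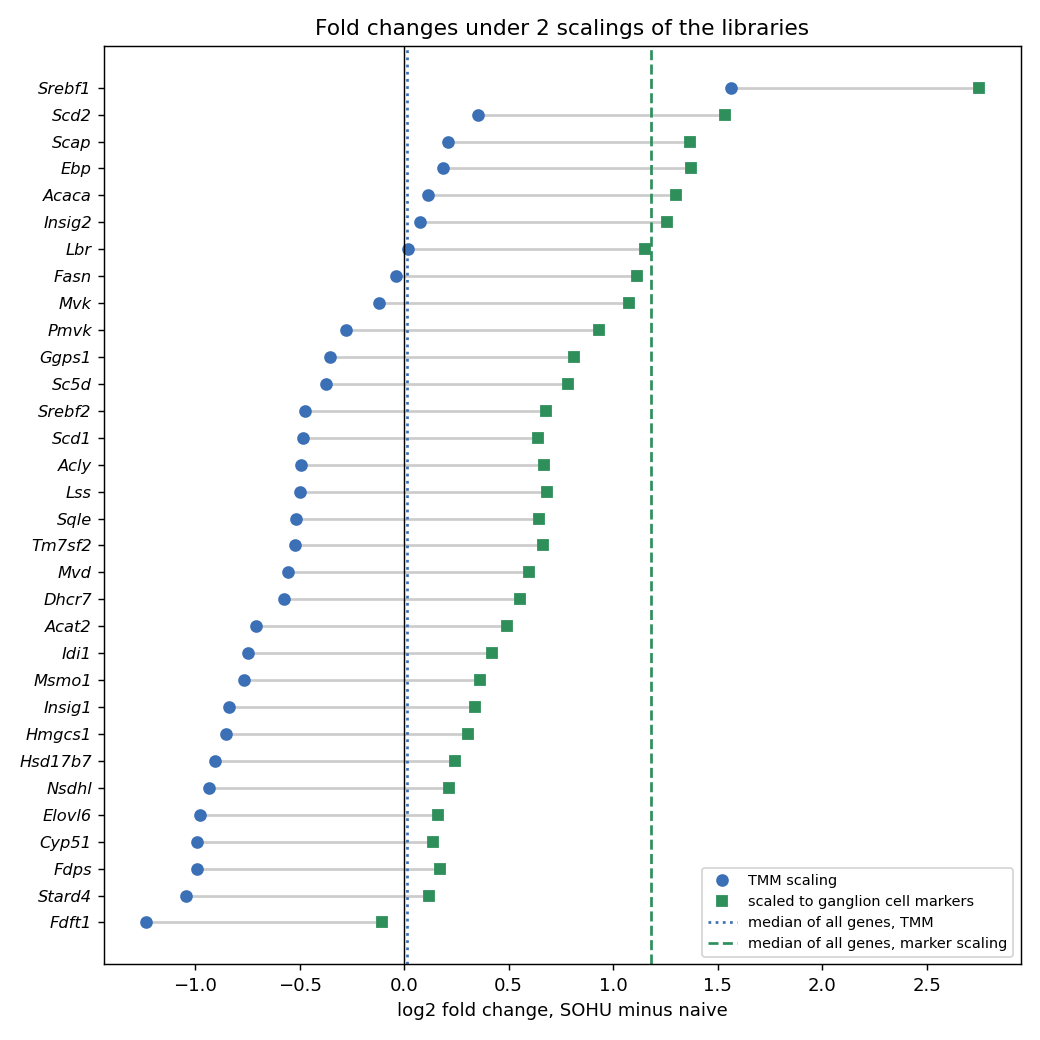
Log2 fold change of each of the 32 genes (x axis) with TMM scaling (blue circles) and with libraries scaled to ganglion cell marker counts (green squares), with the median of all tested genes under each scale (dotted line at 0.01, dashed line at 1.18). The points shift together, and most of the genes lie to the left of the median of all genes on both scales.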

How the data were processed

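RNA was sequenced from anti-HA pull-downs of retina in 3 naive and 3 SOHU libraries, grouped by their labelled condition. The files deposited by the authors hold raw counts of reads for every gene. The submitters' processing notes name genome build mm10 and the tools featureCounts, HISAT2, HISAT, Trim Galore, MultiQC and bcl2fastq 2.17; their order, the strand setting, the annotation release and the treatment of reads that fit several places are not stated there. Symbols came from GENCODE M21 by gene identifier (55154 of 55335).

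Genes with low counts were removed by filterByExpr, leaving 17687 genes that held at least 99.84% of each library's reads. Counts were scaled by TMM (factors 0.943 to 1.039) and tested with edgeR 4.0.16 (R 4.3.3; quasi-likelihood, robust, group as the only term), with Benjamini-Hochberg adjustment over all genes tested and a threshold of 0.05. The common biological coefficient of variation was 22.3%. The test was tried on simulated data that held no broad shift of cell types and no outlying library, so that trial does not cover either. Replicates of a group differed by a chi-square per degree of freedom of 14.0 to 90.1, so none was a second copy of another. Ratios used a prior count of 0.5 reads and an exact permutation test. Alternatives were DESeq2 size factors, no filter, DESeq2 1.42.0, limma-voom (limma 3.58.1), the replicate number as a block, each library left out, and scaling to ganglion cell marker counts; leaving out libraries with DESeq2 and limma-voom was added after the data were seen.

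The 32 genes, the pathway and marker lists and the tests were chosen with earlier results of these data known. All 32 genes are named; of each other pathway list at most the 6 genes with the smallest p, and of each marker list at most 3, with exceptions stated; the list of other sterol synthesis and uptake genes is reported here only in part. Of the list symbols, 1 (Spring1) was not found and 6 genes did not pass the filter. Promoter windows came from RefSeq (GRCm38.p6).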

Additional observations from a re-analysis of the deposited data

How the results depend on the processing

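Fdps (33 to 83 reads a library) and Lbr (124 to 216) had the fewest reads of the 32 genes, here called members. DESeq2 called 3775 genes of all tested, against 2467, among them 3 regulators lower (limma-voom 3, edgeR 1), 2 fatty acid synthesis members lower (edgeR 1) and 7 of the fatty acid supply list higher (edgeR 4). With 1 library left out, genes called ran from 0 to 3896 with edgeR, 0 to 4007 with limma-voom (950 without naive replicate 2) and 1772 to 4722 with DESeq2. Members called lower then ran from 0 to 18 with edgeR and limma-voom (4 with limma-voom without naive replicate 2) and from 10 to 19 with DESeq2, and members called higher from 0 to 2; the cause was not tested. Members called higher were 0 with no filter on low counts. Scaling to ganglion cell markers called 12888 genes, 0 members lower and 14 higher, since every library's scale then moves with the markers. That scale raises all genes together (median from 0.01 to 1.18). Of the 25 members with a negative value under TMM, all but Fdft1 turned positive, and so did every other member called lower. The 24 that turned were Acat2 (0.49), Hmgcs1 (0.31), Mvk (1.07), Pmvk (0.93), Mvd (0.60), Idi1 (0.42), Fdps (0.17), Ggps1 (0.81), Sqle (0.65), Lss (0.68), Cyp51 (0.14), Tm7sf2 (0.66), Msmo1 (0.36), Nsdhl (0.22), Hsd17b7 (0.24), Sc5d (0.79), Dhcr7 (0.55), Srebf2 (0.68), Insig1 (0.34), Stard4 (0.12), Acly (0.67), Fasn (1.11), Elovl6 (0.16) and Scd1 (0.64). Lbr, near 0 throughout, was -0.0117 with no filter, -0.0005 with the replicate block and -0.15 to 0.20 with 1 library left out, including -0.1058 (limma-voom) and -0.0742 (DESeq2) without naive replicate 1 and -0.0118 (limma-voom) without SOHU replicate 3. Fasn ran from -0.14 to 0.14 with 1 library left out.

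Same-numbered libraries correlated at 0.163, 0.251 and 0.00399 in their deviations from the group means. Those with different numbers ran from -0.28 to 0.0946. Libraries numbered 1 and 2 correlated best with their own number, and those numbered 3 did not. So few libraries cannot decide whether equal numbers mark a shared batch or pairing, and the labels do not say. With the replicate number as a block 2070 genes, 11 members lower and 1 higher were called; Mvd (adjusted p = 0.056) and Fdps (adjusted p = 0.0787) were lost.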
